A study of Caenorhabditis elegans with 18 samples.

Results

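The genes for the proteins of the cytosolic ribosome were described across 18 small RNA libraries of the nematode Caenorhabditis elegans. A gene was taken as a member when its symbol starts with rpl-, rps- or rla- followed by a number. The rule gave 81 of the 20134 genes in the table, namely 47 large subunit genes (rpl-), 31 small subunit genes (rps-) and 3 genes of the acidic stalk (rla-). The table also holds 55259 unnamed genomic intervals. Of the 81 genes, 80 had enough reads to be tested, and rpl-25.1 did not.

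The ribosome translates messenger RNA into protein. Its small subunit reads the message, its large subunit joins the amino acids, and the stalk of the large subunit, made of P proteins, recruits the factors that drive elongation. In worms, 22G RNAs are short secondary small RNAs, made antisense to a transcript by RNA-dependent RNA polymerases and loaded into worm-specific Argonautes such as WAGO-1 and WAGO-3. DPF-3 is a dipeptidyl peptidase, an enzyme that trims the N-terminal ends of proteins, and the series concerns its processing of these Argonautes. A read counted under a gene here is a small RNA read and not a level of that gene's messenger RNA.

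All libraries came from whole worms staged at L4, the last larval stage, grown at 15 °C on peptone-rich plates with NA22 bacteria. The 3 strains carried 1xFLAG::WAGO-1 with dpf-3 intact, 1xFLAG::WAGO-1 with a deletion of dpf-3 (dpf-3{delta}), and 1xFLAG::WAGO-3. Each strain gave 3 inputs, made from total RNA after a small RNA enrichment step, and 3 immunoprecipitates (IPs) of the FLAG-tagged protein, made without that step. Every strain carried the tag and no IP from untagged worms was among the samples, so RNA bound to the Argonaute cannot be told apart from RNA held by the beads or favoured by the preparation. There was no WAGO-3 strain with the deletion among the samples used. The labels do not say whether replicates A, B and C were separate cultures, so p-values measure only the spread between these samples, which may be technical.

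Reads assigned to genes and intervals numbered 2206087 to 5649896 per IP and 88761 to 517278 per input. The ribosomal protein genes together held 922 to 18451 of them per IP and 259 to 618 per input, so single genes are far less precise in the inputs. Levels are counts scaled to 1e+06 reads (CPM) on the scale set by edgeR's TMM factors. Reads under dpf-3 were at 29.0 ± 7.42 CPM in the WAGO-1 inputs and 8.35 ± 4.13 CPM in the deletion inputs, and at 4.30 ± 1.44 and 3.04 ± 1.36 CPM in the IPs (SD, n = 3). Replicate A of the WAGO-1 IPs stood apart from B and C, with a chi-square per degree of freedom of 5.26 and 7.48 against them and 1.54 between B and C. Replicate A of the deletion IPs also stood apart, with 3.57 and 2.47 against B and C and 1.30 between these. A gene was called at an adjusted p under 0.05 in edgeR's quasi-likelihood test, Benjamini-Hochberg adjusted over all 11648 features tested.

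The share of reads that fell in ribosomal protein genes was higher in the deletion than with dpf-3 intact, in IPs and in inputs. In the WAGO-1 IPs it was 0.0446% ± 0.00684 (SD, n = 3) of the reads in features with dpf-3 intact and 0.299% ± 0.0254 (SD, n = 3) in the deletion, a ratio of 6.70. In the inputs it was 0.118% ± 0.00682 (SD, n = 3) and 0.382% ± 0.0249 (SD, n = 3), a ratio of 3.24. The groups did not overlap in either comparison, and the two-sided exact permutation p was 0.1 in both, the smallest that 3 against 3 libraries can give.

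The ratio of the summed shares differed between the parts of the ribosome. The ratio of deletion to intact IPs was 9.35 for the small subunit genes, 5.81 for the large subunit genes and 3.64 for the stalk genes, and the differences between these ratios were not tested. Genes with many reads weigh most in such sums. The highest in the WAGO-1 IPs was rpl-42 of the large subunit, at 207 CPM and a log2 fold of 0.43. Gene by gene the subunits were in the other order, with median log2 folds of 1.91 for small subunit, 2.15 for large subunit and 0.75 for stalk genes on the TMM scale. In the WAGO-3 strain the share was 0.152% ± 0.00303 (SD, n = 3) in the inputs and 0.0439% ± 0.00215 (SD, n = 3) in the IPs. The WAGO-3 inputs lay above every WAGO-1 input with no overlap, a ratio of 1.29 (two-sided exact permutation p = 0.1). With all counted reads as the denominator, including those in no feature, the ratio of deletion to intact was 7.31 in the IPs and 2.26 in the inputs. The ratio of IP to input was then 0.88 for WAGO-1, where libraries overlapped (two-sided exact permutation p = 0.3). It was 2.85 in the deletion and 0.66 for WAGO-3. Over reads in features these ratios were 0.38, 0.78 and 0.29, so the order of IP and input in the deletion depended on the denominator.

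**Figure D1:**
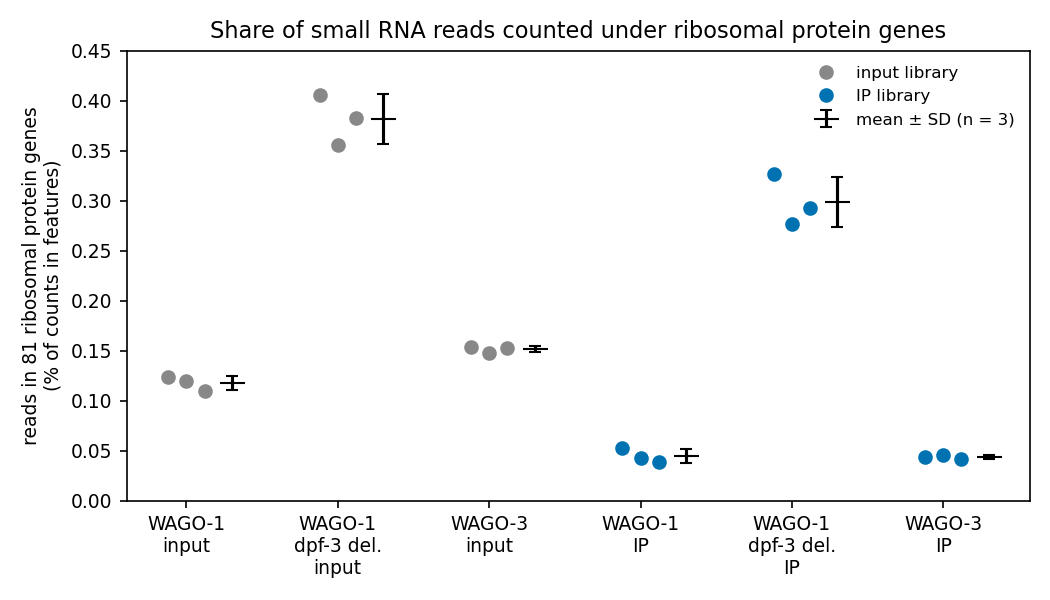
Reads counted under the 81 ribosomal protein genes as a percentage of reads in features (y axis), for each library (points) in the 6 groups (x axis), with the mean ± SD of 3 libraries beside them in black. The deletion inputs and deletion IPs lie above every other group, with means of 0.382% and 0.299%.

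Does the loss of dpf-3 change the small RNAs of these genes in the WAGO-1 IP? Of the 80 genes tested, 70 rose and 1 fell, while 9 were not called. Over all features tested, 30.6% were called higher and 31.8% lower. The median log2 fold of the ribosomal protein genes was 1.98, against 0.07 for all features. On the TMM scale 39 of the genes that rose were at least 4-fold higher, and 5 of them, rps-25, rpl-37, rpl-39, rpl-4 and rps-7, at least 16-fold. The shares of all features at these folds were not counted. The upper quartile of the log2 folds was 0.68 over all features and 2.90 over the ribosomal protein genes. Counting from the libraries themselves, 70 of all 81 genes had every deletion IP above every intact IP, as did 34% of the features tested, and 2 had every deletion IP below, as did 32.6%. The remaining 9 genes overlapped.

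The number of genes called depended on the scale. With total counts in place of TMM factors the median over all features moved up by 1.12, and 79 ribosomal protein genes were then called higher and 1 lower, against 69.2% and 16.9% of all features. The median of the ribosomal protein genes lay 1.9 above that of all features, and 1.74 above that of genes in a fit on genes alone; another scaling adds about the same amount to every fold, so this distance hardly depends on it by construction. Without replicate A of the WAGO-1 IPs the median over all features moved up by 0.46, and 78 genes were called higher and 1 lower, against 49.3% and 24.3% of features. Leaving out replicate B or C of these IPs instead also moved that median up by 0.46, so the shift was not particular to replicate A. Without replicate A of the deletion IPs the counts were 68 and 1, against 29.1% and 30.9%.

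**Figure D2:**
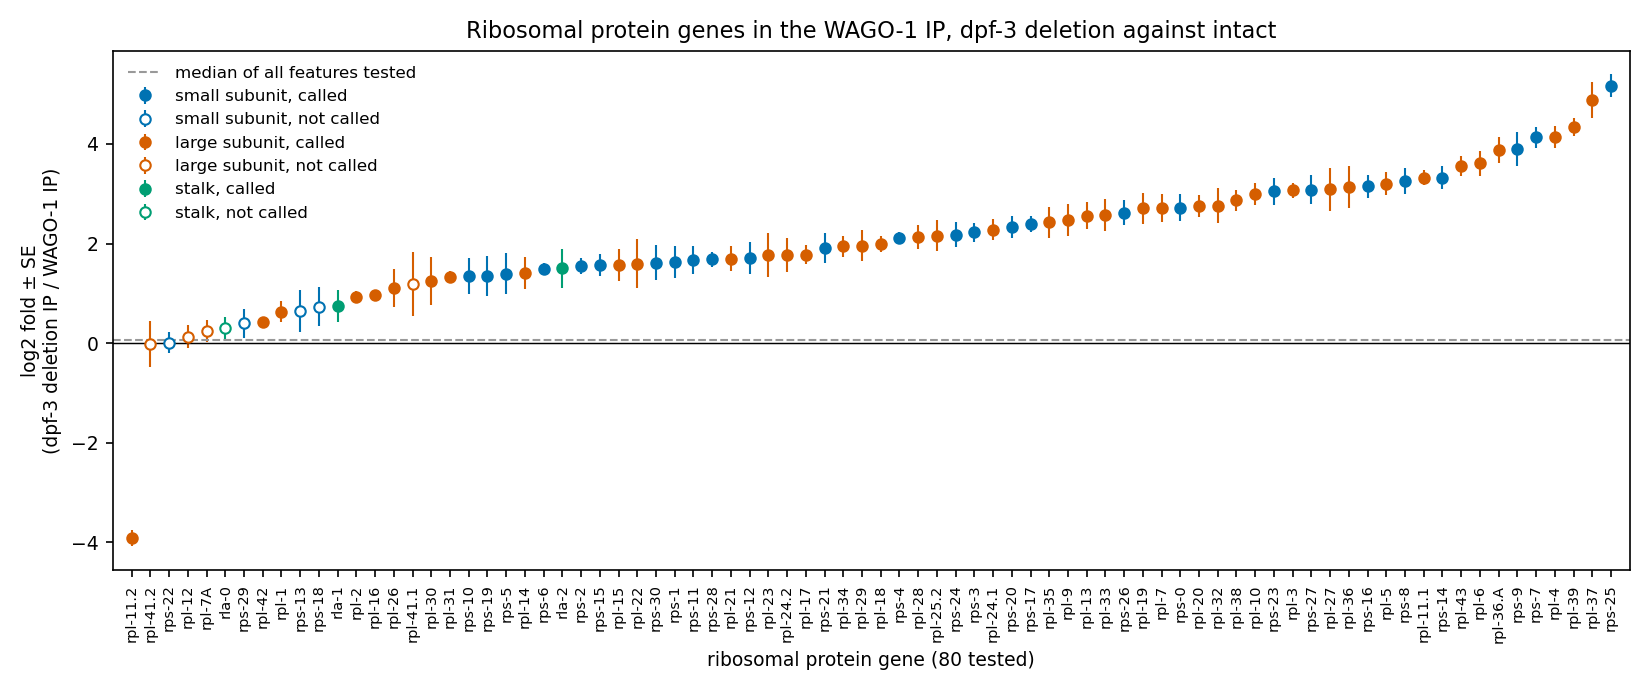
Log2 fold ± SE of the WAGO-1 IP in the dpf-3 deletion over that of the intact strain (y axis) for the 80 ribosomal protein genes tested, in order of the fold (x axis), with colours for the parts of the ribosome. Filled points were called at an adjusted p under 0.05, and the dashed line is the median of all features, 0.07. Apart from rpl-11.2 at -3.92 and rpl-41.2 at -0.02 (1.08 with total counts), every gene lies above 0 on this scale.

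Among small subunit genes, 27 of 31 rose and none fell in edgeR's test (0 at an unadjusted p under 0.05, and 0 in DESeq2), with a median log2 fold of 1.91. The largest rise was that of rps-25 (chromosome IV, 5947093 to 5947605), whose protein sits near the exit site for transfer RNA. Its level was 2.20, 1.55 and 2.28 CPM in the WAGO-1 IPs and 87.7, 66.0 and 66.0 CPM in the deletion IPs. The lowest deletion library was thus far above the highest intact one, a log2 fold of 5.17 ± 0.23 (SE, adjusted p = 8.51e-45, edgeR).

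Next came rps-7 (chromosome I, 10330879 to 10331808) with 2.93, 5.80 and 1.9 CPM against 74.5, 52.7 and 67.7 CPM. The groups were wide apart, with a log2 fold of 4.14 ± 0.21 (SE). For rps-9, whose protein contributes to the accuracy of decoding, the log2 fold was 3.90 ± 0.35 (SE), and for rps-14, a protein of the small subunit platform, 3.33 ± 0.23 (SE). For rps-4 (chromosome IV, 7083696 to 7084682) the level went from 48.4, 44.0 and 35.7 CPM to 201, 161 and 181 CPM, a log2 fold of 2.12 ± 0.11 (SE). This gene overlaps the protein-coding gene Y43B11AR.3 and a snoRNA gene in the RefSeq annotation, and the strand setting of the counting is not given in the sources used here, so its reads cannot be told apart from theirs.

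Large subunit genes had a median log2 fold of 2.15, with 41 of 46 tested genes higher and 1 lower. The gene for rpl-37 held 0, 1.55 and 0.38 CPM in the WAGO-1 IPs and 27.1, 24.3 and 22.5 CPM in the deletion IPs, so that 1 intact library had no read at all. Its log2 fold was 4.89 ± 0.36 (SE). For rpl-39 (chromosome V, 7775742 to 7776079), a small protein that lines the exit tunnel for the new chain, the levels were 4.4, 7.73 and 3.80 CPM and 127, 109 and 100.2 CPM. This is a log2 fold of 4.34 ± 0.18 (SE), with the reservation that rpl-39 overlaps the protein-coding gene grl-10.

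Another tunnel protein, rpl-4 (chromosome I, 4645662 to 4646963), rose from 2.20, 3.09 and 3.42 CPM to 63.3, 44.1 and 56.1 CPM. Its log2 fold was 4.14 ± 0.22 (SE), and a snoRNA gene lies within it. The other large subunit genes among the biggest rises were rpl-36.A at 3.88 ± 0.27, rpl-6 at 3.61 ± 0.25, rpl-43 at 3.56 ± 0.20 and rpl-11.1 at 3.32 ± 0.15 (log2 fold ± SE). In each of them every deletion IP lay above every intact IP.

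Of the 3 stalk genes 2 rose, with a median log2 fold of 0.75, and the difference from the other genes was not tested. For rla-2, which encodes an acidic P protein, the levels were 2.20, 1.93 and 2.66 CPM in the WAGO-1 IPs and 6.43, 7.31 and 6.14 CPM in the deletion IPs, a log2 fold of 1.5 ± 0.38 (SE, adjusted p = 3.26e-04, edgeR). The other acidic P protein gene, rla-1, had 3.67, 3.09 and 5.32 CPM against 9.82, 6.02 and 4.77 CPM. These libraries overlapped, and the log2 fold of 0.75 ± 0.32 (SE, adjusted p = 0.0365, edgeR) lost its call with RLE size factors, with DESeq2, with genes alone in the fit and without replicate A of the deletion IPs. For rla-0, the scaffold of the stalk, the log2 fold was 0.30 ± 0.23 (SE, adjusted p = 0.248, edgeR) and the gene was not called.

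Besides rla-0, the genes not called were rpl-12, rpl-41.1, rpl-41.2, rpl-7A, rps-13, rps-18, rps-22 and rps-29. The protein of rpl-12 lies at the base of the stalk, and its levels were 9.53, 8.11 and 9.50 CPM against 12.2, 9.03 and 8.18 CPM, a log2 fold of 0.14 ± 0.24 (SE). For rps-22 they were 13.9, 15.8 and 11.0 CPM against 15.4, 10.1 and 14.8 CPM, a log2 fold of 0.01 ± 0.20 (SE). Intact and deletion libraries overlapped in both genes. The remaining 6 lay between -0.02 for rpl-41.2 and 1.19 for rpl-41.1, and rpl-7A was at 0.25, rps-29 at 0.40, rps-13 at 0.65 and rps-18 at 0.74. With total counts as the scaling all 9 of these genes, rla-0 included, were called higher, rpl-41.2 at 1.08 and rps-22 at 1.14.

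The gene that fell, rpl-11.2, has a close paralogue that rose. Both encode the large subunit protein that binds the 5S ribosomal RNA, rpl-11.1 from chromosome V (3585333 to 3586064) and rpl-11.2 from the X chromosome (2241738 to 2242618). In the WAGO-1 IPs rpl-11.2 was at 91.7, 75 and 68.0 CPM, and in the deletion IPs at 4.91, 5.37 and 4.77 CPM, a log2 fold of -3.92 ± 0.16 (SE, adjusted p = 1.30e-48, edgeR). The other copy, rpl-11.1, went from 10.3, 10.0 and 10.3 CPM to 108, 91.4 and 107 CPM. The libraries of the 2 strains did not overlap for either gene, and the directions were opposite.

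As a share of the reads of the pair, not corrected for the length of the genes, rpl-11.1 held 67 of 565 reads in the WAGO-1 IPs, or 11.9% (exact 95% interval 9.31 to 14.8). In the deletion IPs it held 1689 of 1771, or 95.4% (94.3 to 96.3). Single libraries ranged from 10.1% to 13.1% and from 94.4% to 95.7%. The WAGO-3 IPs, with 226 of 257 reads or 87.9% (83.3 to 91.7), were closer to the deletion IPs than to the intact WAGO-1 IPs. These intervals cover counting error only, since reads are not known to be independent molecules.

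The inputs showed a split of the pair in the same groups at much lower depth. In the WAGO-1 inputs rpl-11.1 held 45 of 79 reads, or 57.0% (45.3 to 68.1). It held 38 of 41 reads in the deletion inputs, or 92.7% (80.1 to 98.5), and 46 of 51 in the WAGO-3 inputs, or 90.2% (78.6 to 96.7). The level of rpl-11.2 was 23.9, 25.4 and 21.3 CPM in the WAGO-1 inputs, 11.7, 0 and 0 CPM in the deletion inputs and 6.72, 2.52 and 6.62 CPM in the WAGO-3 inputs.

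With 3 reads against 34, the ratio of deletion to intact inputs for rpl-11.2 was 0.173 (exact 95% interval 0.0340 to 0.550, for counting error only). The call was lost without replicate C of the deletion inputs. Against the WAGO-1 inputs, rpl-11.2 was also called lower in the WAGO-3 inputs, with a log2 fold of -2.22 ± 0.60 (SE, adjusted p = 0.00310, edgeR), a call lost without replicate B of the WAGO-3 inputs. Both comparisons share the WAGO-1 inputs. Reads that map to both copies of a pair may have been shared out or dropped by the counting, which is not described in the sources used here, so the values of paralogues are uncertain.

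Another pair, rpl-25.1 and rpl-25.2, encodes a protein at the mouth of the exit tunnel. The copy too weakly covered to be tested, rpl-25.1, had 13.9, 8.89 and 15.6 CPM in the WAGO-1 IPs and 4.74, 2.58 and 3.92 CPM in the deletion IPs, with no overlap. In a fit without the filter on low counts its log2 fold was -1.42 (adjusted p = 1.17e-06, edgeR). The levels of rpl-25.2 were 5.87, 2.32 and 1.52 CPM against 13.2, 12.7 and 11.6 CPM, a log2 fold of 2.16 ± 0.31 (SE, adjusted p = 7.57e-10, edgeR). The share of rpl-25.1 in the reads of the pair was 82.2% (73.3 to 89.1) in the WAGO-1 IPs and 23.5% (18.6 to 29.0) in the deletion IPs. In the inputs rpl-25.1 held 2, 1 and 0 reads in the WAGO-1, deletion and WAGO-3 groups, too few to give a direction.

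In the other 2 pairs no opposite calls were made between the WAGO-1 IPs. Pairs were formed from symbols that differ only after a dot, and whether both genes encode the same protein was not checked. Of rpl-24.1 and rpl-24.2, the first encodes a large subunit protein near the boundary with the small subunit, and both rose, with log2 folds of 2.28 ± 0.20 and 1.78 ± 0.34 (SE). The share of rpl-24.1 was 69.4% in the WAGO-1 IPs and 76.0% in the deletion IPs. Against the inputs this pair was called in opposite directions on the TMM scale, with rpl-24.1 at 2.22 ± 0.50 and rpl-24.2 at -1.36 ± 0.44 in the deletion strain, and at 1.30 ± 0.51 and -1.26 ± 0.50 in the WAGO-3 strain (log2 fold ± SE), where rpl-24.1 turned to -0.33 with total counts. For rpl-41.1 and rpl-41.2, which encode a very short basic protein of the large subunit, neither gene was called between the WAGO-1 IPs. There rpl-41.1 held 5 of 20 reads with dpf-3 intact and 30 of 67 in the deletion.

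**Figure D3:**
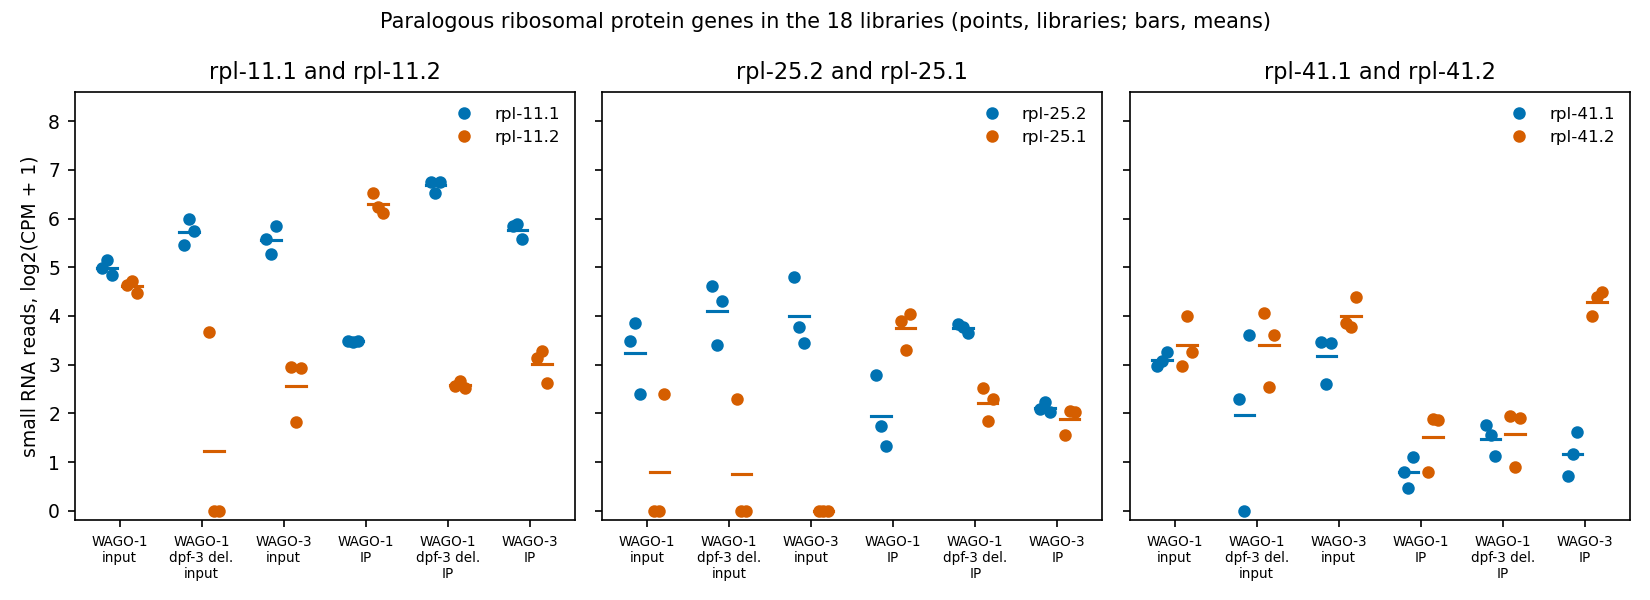
Levels of 3 pairs of paralogous ribosomal protein genes as log2(CPM + 1) (y axis) in the 6 groups (x axis), with a point per library and a bar at the mean of 3. In the WAGO-1 IPs rpl-11.2 and rpl-25.1 lie above their partners, and in the deletion IPs below them.

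Were the inputs changed as well? Of 80 genes, 16 were called higher and 1 lower, against 8.65% and 14.9% of all features, and the median log2 fold was 0.96 against 0.02. With total counts the median over all features moved up by 0.76, and 52 genes were called higher and 0 lower, against 29.1% and 10.2% of features. The median lay 0.94 above that of all features, and 0.76 above that of genes in a fit on genes alone. Leaving out replicate A of the deletion inputs gave 11 genes higher. All 16 genes called higher in the inputs were also called higher in the WAGO-1 IPs, and rpl-11.2 was the gene called lower in both. Since 70 of the 80 genes were called higher in the IPs, most of any 16 would be among them. The same overlap over all features was not counted.

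The 16 comprised 5 small subunit and 11 large subunit genes and no stalk gene. The highest log2 fold was that of rpl-39, at 6.82, 1.49 and 0 CPM in the WAGO-1 inputs and 42.9, 53.0 and 74.8 CPM in the deletion inputs. With 42 reads against 3, the ratio was 27.4 (exact 95% interval 8.76 to 138). For rpl-36.A the 26 and 3 reads gave a ratio of 17.0 (5.20 to 87.6), with deletion inputs at 50.7, 4.81 and 44.9 CPM that differed widely among themselves. Every deletion input was nonetheless above the highest intact one, at 2.99 CPM. The intervals of these ratios pool the reads of each group and cover counting error only, not the spread between libraries.

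Also high among those called were rps-27 at 2.94 ± 0.73, rpl-17 at 2.61 ± 0.63, rps-25 at 2.39 ± 0.61 and rpl-13 at 2.31 ± 0.57 (log2 fold ± SE). The protein of rpl-17 lines the exit tunnel, and that of rps-27 carries a zinc finger. For rps-25 the levels were 6.82, 5.97 and 2.13 CPM against 35.1, 14.4 and 26.2 CPM, with no overlap. Genes that had risen most in the IP were not all called here: rpl-4, with 17.0, 7.46 and 10.6 CPM against 19.5, 24.1 and 22.4 CPM, was not.

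The change of enrichment compares the IP over input ratio of the 2 WAGO-1 strains in an interaction term. Here 9 of 80 genes were called higher and none lower (edgeR, with 0 lower at an unadjusted p under 0.05 and 0 in DESeq2), against 1.55% and 0.661% of all features. The median log2 difference was 0.98, and 0.09 over all features. The 9 were rpl-3, rpl-4, rpl-6, rpl-11.1, rpl-24.1, rpl-43, rps-7, rps-23 and rps-26. The proteins of rpl-3 and rps-23 lie near the peptidyl transferase centre and the decoding centre, and that of rps-26 near the exit of messenger RNA.

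The largest difference was that of rpl-4, at 3.09 ± 0.65 (SE, adjusted p = 8.24e-04, edgeR), followed by rps-23 at 2.82 ± 0.62, rpl-24.1 at 2.79 ± 0.73, rpl-6 at 2.74 ± 0.67, rpl-43 at 2.59 ± 0.48 and rpl-11.1 at 2.59 ± 0.37 (log2 difference ± SE). For rps-23 the WAGO-1 strain had 20.4, 13.4 and 10.6 CPM in inputs and 2.20, 3.48 and 2.28 CPM in IPs, and the deletion strain 11.7, 14.4 and 22.4 CPM in inputs and 26.9, 21.1 and 21.1 CPM in IPs. The IPs of the strains were far apart and the inputs overlapped. Although rps-25 had the largest fold between the IPs, its difference in enrichment of 2.77 ± 0.84 (SE, adjusted p = 0.0565, edgeR) was not called.

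The count of 9 depended on single libraries. It was 36, 28 and 30 without replicate A, B and C of the WAGO-1 IPs (13.9% of features were higher without A), and 5 without replicate B of the WAGO-1 inputs or replicate B or C of the deletion inputs. Leaving out any WAGO-1 IP moved the median over all features up by 0.56 to 0.58 in this comparison. The shares of features called in the other omissions are not given here. With total counts, 24 genes were called higher and 0 lower, against 7.41% and 0.378% of features.

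Set against all features, the folds of IP over input of ribosomal protein genes were low in the intact WAGO-1 strain. Of 80 genes, 8 were called higher and 33 lower, against 43.2% and 24.9% of all features, with a median log2 fold of -1.0 against 0.52. In the deletion strain 21 were called higher and 5 lower, against 32.9% and 21.2%, with a median of 0.23 against 0.40. In the WAGO-3 strain 9 were higher and 23 lower, against 34.8% and 26.8%, with a median of -0.53 against 0.23. Without replicate A of the WAGO-1 IPs the counts for WAGO-1 were 6 and 43, against 34.7% and 31% of features, and without replicate A of the deletion IPs those for the deletion were 19 and 5, against 32.6% and 21%. Leaving out any WAGO-1 IP moved the median over all features by -0.41 to -0.45 in the WAGO-1 strain. The preparation of IPs and inputs differed, so these folds cannot be told apart from it.

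Translation factors, biogenesis genes and germ line markers were low in the intact WAGO-1 IPs too. Lower than in the inputs were 18 of 38 translation factors, 12 of 22 biogenesis genes, 20 of 69 mitochondrial ribosomal protein genes and 7 of 8 germ line markers, against 24.9% of all features. Called higher were 4, 3, 14 and 1 of them, against 43.2%. The medians were -0.66, -0.89, -0.26 and -1.65, against 0.52. The share of the mitochondrial genes called lower was near that of all features. The summed level of the germ line markers was 692 to 701 CPM in the WAGO-1 inputs and 582 to 947 CPM in the IPs, with no marker at 0, and their part in the result was not tested.

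With total counts the medians over all features fell by 1.44, 1.07 and 1.62 in these 3 comparisons, and the split of calls moved. Then 0 genes were called higher and 66 lower for WAGO-1 (12.3% and 48.8% of features), 3 and 31 in the deletion (12.8% and 37%) and 0 and 56 for WAGO-3 (10.2% and 52.1%). The medians of these genes differed from those of all features by -1.52, -0.17 and -0.76. In a fit on genes alone they differed from the median gene by -1.16, 0.13 and -0.40, so the sign in the deletion strain depended on whether the intervals were counted.

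**Figure D4:**
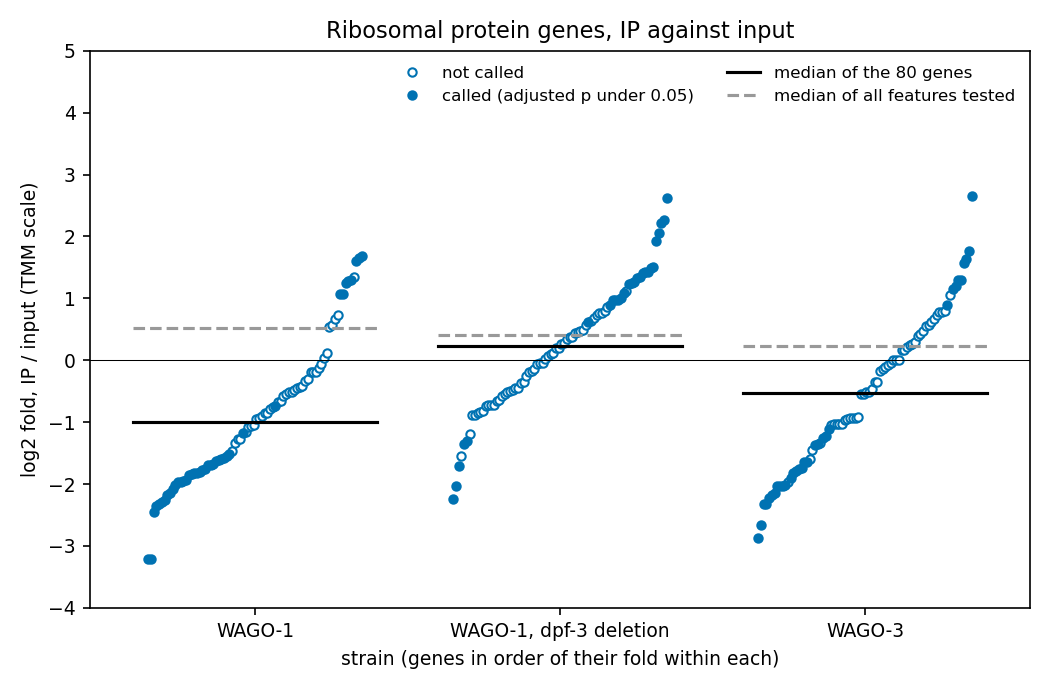
Log2 fold of IP over input on the TMM scale (y axis) for the 80 ribosomal protein genes in each of the 3 strains (x axis), in order of the fold within the strain, with filled points for genes called. Black lines are the medians of the genes, -1.0, 0.23 and -0.53, and dashed grey lines those of all features, 0.52, 0.40 and 0.23.

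The genes called higher in the WAGO-1 IPs on the TMM scale were rpl-2, rpl-11.2, rpl-16, rpl-17, rpl-31, rpl-42, rps-4 and rps-6, none of which was called higher with total counts. The highest, rpl-11.2, had a log2 fold of 1.69 ± 0.24 (SE, adjusted p = 3.39e-10, edgeR). The protein of rpl-31 sits beside the exit of the tunnel, and its levels were 3.41, 22.4 and 14.9 CPM in the inputs and 77.7, 44.4 and 39.1 CPM in the IPs, a log2 fold of 1.65 ± 0.30 (SE). For rpl-16 it was 1.60 ± 0.24 (SE), and for rps-6, whose protein is the classical substrate of S6 kinase, 1.30 ± 0.28 (SE).

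The folds of rpl-17 at 1.27 ± 0.56 and rps-4 at 1.25 ± 0.28 (SE) turned to -0.16 and -0.19 with total counts, as did that of rps-6 to -0.14. Among genes called lower on the TMM scale, rpl-27 had 10.2, 8.96 and 8.52 CPM in the inputs and 0.733, 0.773 and 1.14 CPM in the IPs. These libraries did not overlap, and the log2 fold was -3.22 ± 0.69 (SE, adjusted p = 2.03e-05, edgeR). Of the 33 genes called lower, the others with the largest folds and no overlap were rpl-41.1 at -3.22 ± 0.78, rps-18 at -2.45 ± 0.50, rps-23 at -2.32 ± 0.49, rpl-22 at -2.29 ± 0.76 and rpl-41.2 at -2.26 ± 0.57 (log2 fold ± SE).

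In the deletion strain 6 of the 8 genes higher in the intact WAGO-1 IPs were again called higher, and 5 genes called lower there, rpl-4, rpl-6, rpl-11.1, rpl-43 and rps-16, were called higher here on the TMM scale. The same overlaps over all features were not counted. The leading genes were rpl-31 at 2.62 ± 0.31, rpl-20 at 2.27 ± 0.50, rpl-24.1 at 2.22 ± 0.50, rps-6 at 2.05 ± 0.26 and rps-4 at 1.92 ± 0.21 (log2 fold ± SE). For rpl-20 the inputs were at 7.79, 9.63 and 3.74 CPM and the IPs at 35.9, 33.3 and 30.7 CPM. The 5 lower genes were rpl-41.2 at -2.24 ± 0.70, rps-18 at -2.03 ± 0.53, rps-10 at -1.71 ± 0.47, rpl-24.2 at -1.36 ± 0.44 and rpl-27 at -1.30 ± 0.46 (log2 fold ± SE). Leaving out replicate A of the deletion inputs gave 3 genes lower.

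In the WAGO-3 strain the highest fold was that of rps-17, a small subunit protein, with 0, 7.55 and 3.31 CPM in the inputs and 26.5, 28.0 and 20.5 CPM in the IPs. Its log2 fold was 2.65 ± 0.55 (SE, adjusted p = 1.16e-05, edgeR). Next were rps-6 at 1.76 ± 0.31, rps-24 at 1.64 ± 0.47, rpl-16 at 1.56 ± 0.28, rpl-24.1 at 1.30 ± 0.51 and rpl-18 at 1.30 ± 0.30 (log2 fold ± SE). With total counts rpl-16, rpl-24.1 and rpl-18 turned to -0.07, -0.33 and -0.34. Called higher in all 3 strains on the TMM scale were 3 genes, rpl-16, rps-4 and rps-6, and those called lower with both WAGO-1 and WAGO-3 numbered 15. Over all features, 43.2%, 32.9% and 34.8% were called higher in the WAGO-1, deletion and WAGO-3 strains. Called lower were 24.9% with WAGO-1 and 26.8% with WAGO-3. How many features shared these calls was not counted, so the 3 and the 15 cannot be set against it.

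Lower in the WAGO-3 IPs were, among others, rpl-41.1 at -2.66 ± 0.86, rps-25 at -2.33 ± 0.71, rpl-13 at -2.33 ± 0.59, rpl-25.2 at -2.22 ± 0.57, rla-0 at -2.17 ± 0.39 and rpl-43 at -2.15 ± 0.44 (log2 fold ± SE). For rla-0 the inputs were at 43.7, 32.7 and 23.2 CPM and the IPs at 6.47, 6.84 and 9.22 CPM, with no overlap. In the WAGO-1 strain rla-0 was not called between IP and input, at -0.34 ± 0.42 (SE, adjusted p = 0.483, edgeR).

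The enrichments with WAGO-3 and with WAGO-1 were compared in an interaction term, in which 10 of 80 genes were called higher with WAGO-3 and 3 lower, against 12.5% and 15% of all features. The share called higher was thus no different from that of all features, and the share called lower was smaller. The median log2 difference was 0.33, and 0.04 over all features. The counts were 5 higher without replicate B of the WAGO-1 inputs or replicate C of the WAGO-3 inputs, and 1 lower without replicate C of the WAGO-1 IPs or replicate A or B of the WAGO-3 IPs. With total counts they were 8 and 5, against 9.72% and 17.2%, and without replicate A of the WAGO-1 IPs 15 and 2, against 21.5% and 11.9%. Leaving out any WAGO-1 IP moved the median over all features up by 0.38 to 0.40 in this comparison.

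The largest difference towards WAGO-3 was that of rps-24, at 3.59 ± 0.64 (SE, adjusted p = 1.76e-06, edgeR). It was at 6.82, 13.4 and 27.7 CPM in WAGO-1 inputs and 6.60, 2.70 and 4.56 CPM in WAGO-1 IPs, but at 10.1, 2.52 and 13.2 CPM in WAGO-3 inputs and 29.8, 22.4 and 22.5 CPM in WAGO-3 IPs. The 2 sets of IPs did not overlap. Then came rps-17 at 2.85 ± 0.74, rpl-41.2 at 2.55 ± 0.70, rpl-27 at 2.29 ± 0.84, rpl-19 at 2.23 ± 0.80 and rpl-24.1 at 1.87 ± 0.70 (log2 difference ± SE).

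The pair rpl-41.1 and rpl-41.2 lie side by side on chromosome I, at 4789190 to 4789592 and 4790292 to 4790642. In the WAGO-3 IPs rpl-41.2 was at 14.9, 19.9 and 21.5 CPM and rpl-41.1 at 0.647, 1.24 and 2.05 CPM. The share of rpl-41.1 in the reads of the pair was 6.17% there (exact 95% interval 2.03 to 13.8), and 34.8% (16.4 to 57.3) in the WAGO-3 inputs.

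The 3 genes lower with WAGO-3 were rpl-42 at -2.87 ± 0.27, rla-0 at -1.84 ± 0.55 and rps-2 at -1.27 ± 0.44 (log2 difference ± SE). The large subunit gene rpl-42 (chromosome II, 11092713 to 11094022) was at 68.2, 115 and 91.6 CPM in WAGO-1 inputs and 247, 199 and 174 CPM in WAGO-1 IPs. In the deletion it was at 89.6, 125 and 135 CPM in inputs and 287, 260 and 277 CPM in IPs. With WAGO-3 the order was opposite, with 87.3, 106 and 89.4 CPM in inputs and 27.2, 29.2 and 24.6 CPM in IPs. The 3 groups of inputs overlapped, and no IP overlapped its inputs.

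An unnamed interval on the plus strand within rpl-42, at 11093909 to 11094021 of chromosome II (build ce11), was counted apart from the gene. It held 45, 25 and 23 reads in the WAGO-1, deletion and WAGO-3 inputs, and 705, 1462 and 22 reads in their IPs. The log2 fold of IP over input was 1.74 ± 0.22 for WAGO-1, 1.39 ± 0.29 in the deletion and -2.10 ± 0.50 for WAGO-3 (SE). The difference between WAGO-3 and WAGO-1 was -3.84 ± 0.57 (SE, adjusted p = 1.31e-08, edgeR), the same direction as for the gene. Between the deletion and intact IPs it was not called, at -0.22 ± 0.11 (SE, adjusted p = 0.0618, edgeR), while rpl-42 itself was higher by 0.43 ± 0.09 (SE).

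Between the inputs of the WAGO-3 and WAGO-1 strains, 2 genes were called higher, rps-27 at 2.49 ± 0.73 and rla-0 at 1.48 ± 0.43 (log2 fold ± SE), and rpl-11.2 was lower, against 5.73% and 8.01% of features. With total counts the calls were again 2 and 1, against 6.01% and 7.86%. For rps-27 the levels were 13.4, 20.1 and 13.2 CPM with WAGO-3 and 3.41, 1.49 and 4.26 CPM with WAGO-1, with no overlap. The call of rla-0 or rps-27 was lost without replicate B of the WAGO-1 inputs or replicate A or B of the WAGO-3 inputs.

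How evenly the reads were spread over the genes differed between groups. In the WAGO-1 IPs the 5 genes with the highest CPM (rpl-42, rpl-16, rpl-11.2, rpl-31 and rps-6) held 51.7% of the summed CPM of the 81 genes, not corrected for gene length. The 5 highest genes of each other group held 31.5% in the deletion IPs, 32.1% in the WAGO-3 IPs and 20.0% to 22.5% in the inputs. The median gene was at 3.75 CPM in the WAGO-1 IPs, 19.6 CPM in the deletion IPs and 7.20 CPM in the WAGO-3 IPs. In the inputs of the same strains it was at 8.74, 17.6 and 11.7 CPM.

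Other genes of translation were read in the same fit. In the comparison of the WAGO-1 IPs, 30.6% of all features were higher and 31.8% lower. Of 38 tested translation factor genes 24 were higher and 4 lower, with a median log2 fold of 0.67. Of 69 genes for mitochondrial ribosomal proteins 36 were higher and 1 lower, with a median of 0.65, and of 22 ribosome biogenesis genes 16 were higher and 1 lower, with a median of 0.84. These medians lay between the 0.07 of all features and the 1.98 of the cytosolic ribosomal protein genes, and differences between lists were not tested. With total counts 36, 68 and 22 genes of these 3 lists were called higher and 1, 0 and 0 lower. Of all features, 69.2% and 16.9% were.

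The largest single change was that of ifg-1, the scaffold of the cap-binding complex, at 16.7 ± 2.39 CPM in the WAGO-1 IPs and 867 ± 31.9 CPM (SD, n = 3) in the deletion IPs, a log2 fold of 5.73 ± 0.12 (SE). The opposite direction was seen for iff-2, one of the genes for the elongation factor that carries hypusine, at 1446 ± 77.5 and 266 ± 17.0 CPM (SD, n = 3), a log2 fold of -2.44 ± 0.08 (SE). Its paralogue iff-1 rose by 2.58 ± 0.15, and eef-1A.1, which delivers transfer RNA to the ribosome, by 2.37 ± 0.14 (log2 fold ± SE). Thus iff-1 and iff-2 moved in opposite directions, as rpl-11.1 and rpl-11.2 did.

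Among biogenesis genes the changes were 4.41 ± 0.19 for dkc-1, the pseudouridine synthase of snoRNA particles, 2.41 ± 0.17 for fib-1, the methyltransferase of another class of them, 1.80 ± 0.12 for nol-56 of the same class, and 1.68 ± 0.11 for rpoa-2, a subunit of RNA polymerase I (log2 fold ± SE). Of the mitochondrial genes, mrpl-46 was at 0.79 ± 0.10, mrps-14 at 1.54 ± 0.21, mrps-18A at 1.86 ± 0.34 and mrps-27 at -0.58 ± 0.09. With total counts 0 of the mitochondrial genes were called lower, so mrps-27 lost its call as lower. In the inputs 9 of 38 translation factors, 6 of 69 mitochondrial and 8 of 22 biogenesis genes were higher, and 1, 0 and 0 lower, against 8.65% and 14.9% of all features, so that the share of the mitochondrial genes called higher was near that of all features.

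**Figure D5:**
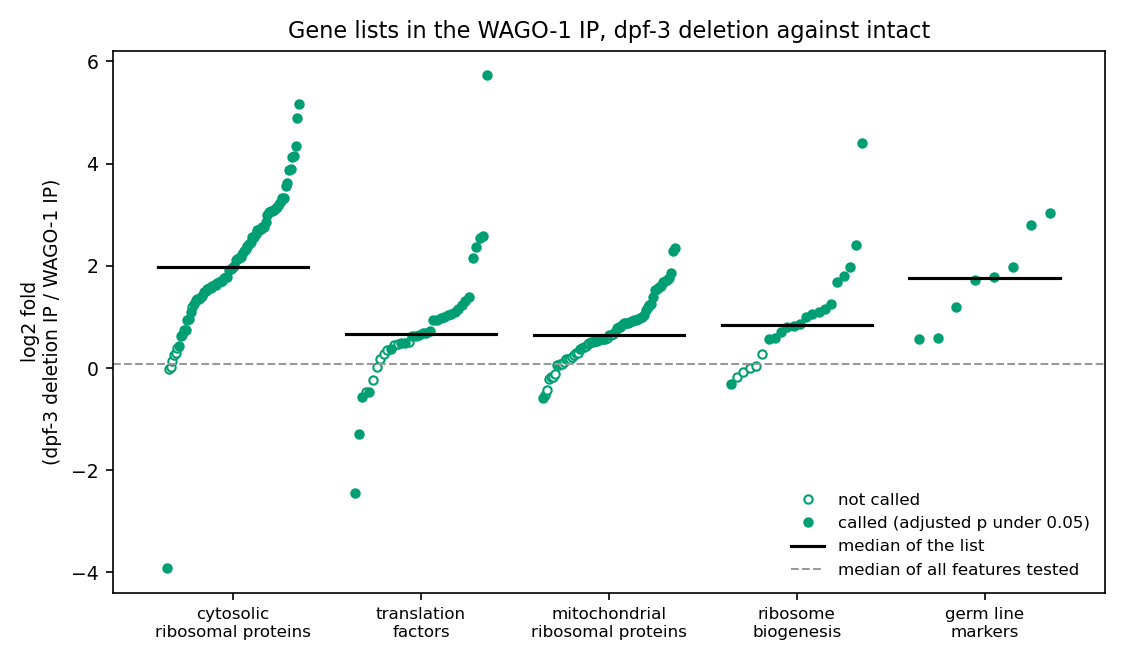
Log2 fold of the WAGO-1 IP in the dpf-3 deletion over that of the intact strain (y axis) for the tested genes of 5 lists (x axis), in order of the fold within the list, with filled points for genes called. Black bars are the medians of the lists, from 0.65 to 1.98, and the dashed line is the median of all features, 0.07.

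Small RNA reads of germ line genes moved in the same comparison. Over all features, 30.6% were called higher and 31.8% lower between the WAGO-1 IPs, and 8.65% and 14.9% between the inputs. Of 8 germ line markers, 8 were higher in the deletion IPs, with a median log2 fold of 1.75, and 6 in the deletion inputs. Their summed level was 582 to 947 CPM in the WAGO-1 IPs and 1448 to 1682 CPM in the deletion IPs, 692 to 701 and 1127 to 1280 CPM in the inputs, and no marker was at 0. Of 6 sperm markers 1 was higher and 3 lower in the deletion IPs, with sums of 241 to 251 and 89.6 to 95.2 CPM and no marker at 0. With total counts 3 sperm markers were called higher and 1 lower, against 69.2% and 16.9% of all features. Neuron markers summed to 47.9 to 59.4 and 81.3 to 86.1 CPM, and 3 of 3 tested were higher. These worms are whole animals, so fewer cells of a type and less RNA per cell cannot be told apart, and the part of the markers in the result was not tested.

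Muscle, intestine and hypodermis markers were mostly too weakly covered to be tested, with 1 of 4, 3 of 5 and 0 of 4 tested. On the TMM scale the muscle marker tested was lower in the deletion IPs, at a log2 fold of -0.61, and no intestine marker was called in edgeR. With total counts the muscle marker was called higher, at 0.53, as were 3 of 3 intestine markers. Of all features, 69.2% were called higher with that scaling. Their sums in the WAGO-1 and deletion IPs were 495 to 542 and 309 to 371 CPM for muscle, 11.8 to 16.9 and 16.1 to 17.9 CPM for intestine, and 8.80 to 12.5 and 6.94 to 9.03 CPM for hypodermis.

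By exact symbol, 61 of the 81 genes (75.3%) had a position in the RefSeq table of the same assembly, 19 on chromosome I, 6 on II, 13 on III, 16 on IV, 6 on V and 1, rpl-11.2, on X. Of these, 8 overlapped another protein-coding gene and 11 a snoRNA gene. With positions for under 80% of the genes, a check of the folds against gene length is void and was not made.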

How the data were processed

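Small RNA reads of 18 libraries were used as the deposited table gives them, as read counts per gene and interval that the authors had not normalised. Per the submitters' processing notes, the tools were HTSeq 0.11.2, SAMtools 1.9, Bowtie 1.2.3 and cutadapt 2.3 with build ce11. How strand, multiply mapped reads and molecular tags were handled, and with which annotation, is not stated in the sources used here. Reads in no feature (68.6% to 82.4% of counted reads in inputs, 32.5% to 38.6% in IPs) stayed out of library sizes and tests. No column was left unused.

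Features were kept with edgeR 4.0.16 (R 4.3.3) filterByExpr at a minimum count of 10, which left 11648 of 75393 features, 9869 of them genes. One quasi-likelihood model with a mean for each of the 6 groups and TMM factors (0.431 to 2.39) was fitted, and 8 contrasts were tested. An SE is the size of the log2 fold over the root of its F statistic. The test was checked on simulated data for 3 of the contrasts, with changes put in the deletion IPs alone, so the input contrast was checked only without changes. DESeq2 1.42.0, other scalings, no filter, genes alone, a replicate block and the omission of each library were alternatives; genes alone was chosen after seeing the data. Omissions kept the features tested in the full set, a choice made after seeing omissions that filtered anew and so tested fewer genes.

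The genes, lists and tests were chosen with earlier results of these data known. Named genes are the 12 largest called log2 folds without overlap between the WAGO-1 IPs, the 5 smallest, those not called, the stalk genes and paralogues, and up to 6 per direction in the other comparisons; the interval in rpl-42 and the single genes chosen to show levels were added after their values were seen. Of 28 biogenesis genes listed, 23 were in the table. RefSeq positions are those of WBcel235, the same assembly as ce11.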

Additional observations from a re-analysis of the deposited data

Results flagged for a closer look

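Differences between groups in the effect of the IP were tested as interaction terms with edgeR, and single genes were called in both comparisons of enrichment. In the dpf-3 deletion, 9 of 80 ribosomal protein genes had a higher WAGO-1 enrichment than with dpf-3 intact, against 1.55% of all features, and the count moved between 5 and 36 when 1 library was left out. Between the proteins, 10 of 80 genes had a higher enrichment with WAGO-3 than with WAGO-1 and 3 a lower one, against 12.5% and 15% of all features. The share called higher was thus no different from that of all features, and the share called lower was smaller.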

How the results depend on the processing

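Input depth limits single genes most. Whether the letters of the replicates pair the libraries could not be told. Same-lettered deviations correlated at -0.02 to 0.14, the highest between replicates A of the WAGO-1 and deletion IPs. With so few reads per feature in the inputs, counting noise can keep such values low even for paired libraries. With the replicate block 69 genes were called higher and 1 lower between the WAGO-1 IPs (70 and 1 without it) and 16 and 1 between inputs. No count moved by over 1.5 times. In the WAGO-1 IP comparison the alternatives gave 67 to 79 genes higher and 1 lower, or 2 without the filter. Single libraries left out gave 68 to 78 and 1, and 67 of the 70 genes kept the call throughout; rla-1, rpl-1 and rpl-30 did not. Of 1207 values of single ribosomal protein genes under alternatives, 1077 kept direction and side of the threshold. The call was lost in 86 and gained in 36, and 8 values turned. Genes of the other lists were not among these values. Between the WAGO-1 IPs rpl-41.2 turned to 1.08 with total counts and 1.21 with all counted reads. For IP over input with total counts rps-6, rpl-17 and rps-4 turned to -0.14, -0.16 and -0.19 (WAGO-1). With WAGO-3 rpl-16, rpl-24.1 and rpl-18 turned to -0.069, -0.33 and -0.34. The causes were not tested beyond the scaling.

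With total counts, 52 genes were higher and 0 lower between inputs, 24 higher in the change of enrichment, 0 and 66 higher and lower in WAGO-1 IP over input, 3 and 31 in the deletion, 0 and 56 with WAGO-3, and 5 lower in WAGO-3 against WAGO-1 enrichment. With all counted reads, 53 were higher in the change of enrichment, 45 higher and 2 lower in the deletion IP over input, and 5 lower with WAGO-3 against WAGO-1. The median over all features moved by 1.04, 0.78 and -0.19 in these 3 comparisons, so the counts followed a shift of all features. The input share ratio was 2.26. Without the filter, 8 were higher between inputs, 20 in the change of enrichment, 5 with WAGO-3 against WAGO-1 and 0 in the WAGO-3 inputs, and 3 lower in the deletion IP over input. In these 5 comparisons the median over the 11648 features moved by -0.24, 0.53, 0.05, -0.14 and 0.33. Without the filter p was also adjusted over every feature with a read, so these counts need not follow the medians. Between the WAGO-3 and WAGO-1 inputs the log2 fold of rla-0 went from 1.48 to 1.34. Its adjusted p went from 0.00866 to 0.0936 (edgeR). Shares of all features called with all counted reads or without the filter are not given here, so these counts are no result about the ribosomal protein genes alone. Each library left out in turn gave 11 to 16 higher and 0 to 1 lower between inputs, 5 to 36 and 0 in the change of enrichment, 6 to 9 and 22 to 43 in WAGO-1 IP over input, 18 to 24 and 3 to 5 in the deletion, 7 to 9 and 20 to 23 with WAGO-3, 5 to 15 and 1 to 4 in WAGO-3 against WAGO-1 enrichment, 1 to 3 and 0 to 1 between WAGO-3 and WAGO-1 inputs, and share ratios of 6.31 to 7.33 (IP) and 3.14 to 3.35 (input).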
